A study of Homo sapiens with 12 samples.

Results

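SK-N-DZ is a human neuroblastoma line with MYCN amplification and wild-type ARID1A, and the data described here are its RNA response to interferon gamma (IFNγ). Untreated control libraries (C, n = 3) were compared with libraries from cells given IFNγ for 24 h (I, n = 3), chosen by their sample labels as 6 of the 12 libraries of the series. None of the 6 received doxycycline. Per the study's methods the cells are puromycin-selected clones of SK-N-DZ that carry a hairpin against ARID1A in the Tet-pLKO-puro vector. Doxycycline is its inducer, and expression of the hairpin without doxycycline was not tested here. C and I therefore both hold the uninduced hairpin, and clonal cells stand for the line, with the clone and hairpin not named in the labels. The other 6 libraries come from cells given doxycycline for 4 days, without IFNγ (D, n = 3) or with it (DI, n = 3). They share the main model with C and I, so they enter its filter, scaling and estimate of spread. Below they also serve as a second set of libraries with and without IFNγ, and to compare the responses with and without doxycycline. The labels do not say that replicates came from separate cultures, so p-values measure the spread between these libraries, which may be technical.

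IFNγ is a cytokine made mainly by T cells and natural killer cells. It binds the receptor chains IFNGR1 and IFNGR2, the kinases JAK1 and JAK2 then phosphorylate STAT proteins, and STAT dimers bind GAS elements in the genome. Among their targets are transcription factors of the IRF family, which bind ISRE elements and carry the response on to antigen presentation and antiviral defence, while SOCS proteins damp the signal. Neuroblastomas are known for low surface levels of MHC class I, the molecules that show peptides to cytotoxic T cells, and IFNγ is known to raise them.

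Sequencing depth was 16469832 to 20157365 counts a library in C and 19198225 to 21096267 in I, at which 3 counts, taken as the detection floor, equal 0.149 to 0.187 CPM in C and 0.148 to 0.164 CPM in I. Values are counts relative to the TMM-scaled library size, in the usual CPM unit, and without molecular identifiers floors and intervals cover counting error only. Neuroblastoma markers were expressed in all 6 libraries, which goes with the label but does not identify the line. Each of the 14 neuroblastoma markers examined, among them PHOX2A, HAND2, MYCN, TH, DBH, CHGA and STMN2, had enough counts to be tested, and their summed level was 5932 to 6561 CPM in C and 5894 to 6850 CPM in I. Single markers could spread widely: TH had 47.3, 3.13 and 74.7 CPM in C and 21.5, 2.18 and 59.0 CPM in I. Of 13 fibroblast and endothelial markers 9 had enough counts, with summed levels of 113 to 139 CPM in C and 132 to 177 CPM in I, highest in THY1 and PDGFRB. Of 20 leukocyte markers 4 had enough counts, with summed levels of 8.29 to 18.2 CPM in C and 6.18 to 14.3 CPM in I over the whole list. CD3D, CD3E, CD2, MS4A1, ITGAM, ITGAX and FCGR3A had 0 counts in all 6 libraries, and CD4 made up most of the sum in replicates 1 and 2 of both groups, with 14.1, 12.6 and 3.74 CPM in C and 9.80, 10.5 and 1.26 CPM in I. In bulk RNA fewer cells of a type and less RNA per cell cannot be told apart. ARID1A itself (ENSG00000117713, chromosome 1, 26693236 to 26782110, plus strand) had 197, 186 and 165 CPM in C and 192, 203 and 194 CPM in I, with overlapping groups (edgeR adjusted p = 1).

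The response was large and, among the genes called without a block, almost wholly upward. Of 15828 tested genes, 350 or 2.21% were differentially expressed between I and C (edgeR quasi-likelihood test, two-sided, BH adjusted p under 0.05). Of these, 332 (2.10% of those tested) rose and 18 (0.114%) fell. By at least 2-fold, 269 genes (1.70%) rose and 8 (0.0505%) fell, and the median log2 fold change was 2.94 over the 332 and −0.95 over the 18, against −0.0081 over all tested genes. For every one of the 332 and the 18 the groups did not overlap, where over all tested genes 8.84% lay wholly higher and 6.24% wholly lower in I. Same-numbered libraries of C and I varied together, and with the replicate number as a block 773 genes (4.88%) rose and 180 (1.14%) fell, including all 350. The balance of rises and falls thus depended on the model. It shifted further toward falls with the block on only the 6 libraries, as given in the last section. With C replicate 1 left out 262 genes were called, the fewest of the 6 such fits.

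**Figure D1:**
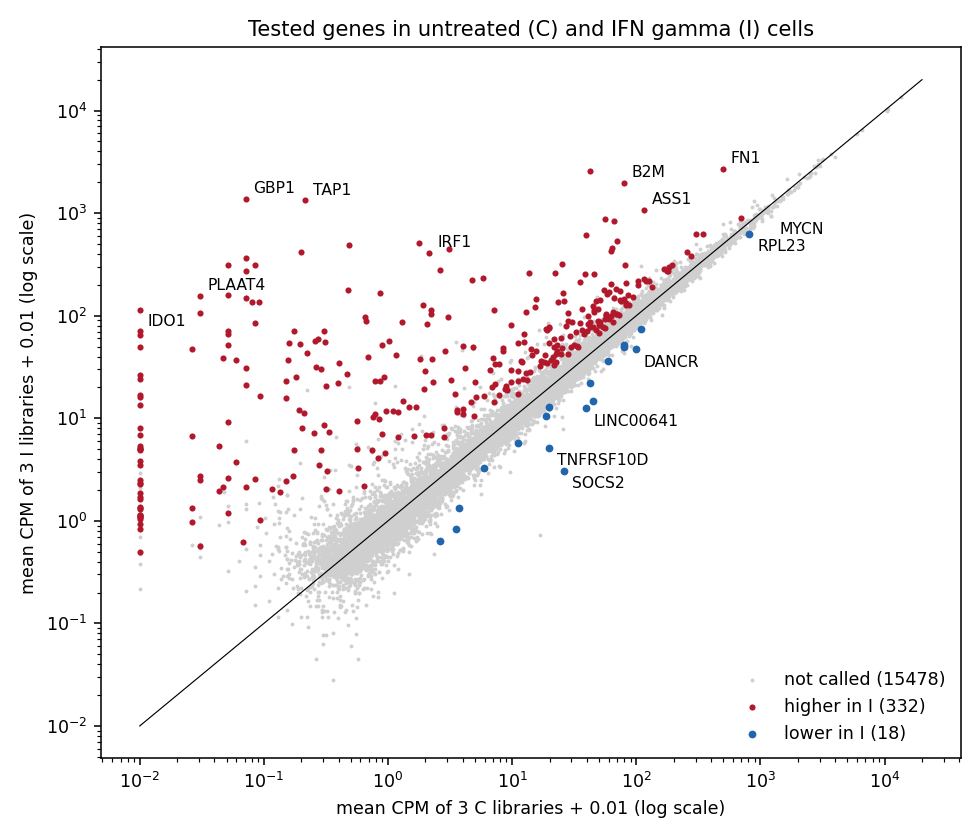
Mean level of each tested gene in C (x axis) against I (y axis), in CPM plus 0.01 on log scales, for 15478 genes not called (grey), 332 that rose (red) and 18 that fell (blue). Many of the red points stand at the left edge, where C has few or no counts, and the blue points lie close to the diagonal.

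Many of the genes that rose were silent or nearly so before treatment. In C, 36 of the 332 had 0 counts in all libraries and 74 had at most 3 counts in every library, or 22.3% of them against 0.771% of all tested genes. Genes this low in C could pass the expression filter only through another group, so these counts describe them and test nothing. The other 258 had a median log2 fold change of 1.85, and 81 of them rose at least 10-fold. The 332 genes held 0.872, 0.956 and 0.869% of all counts in C replicates 1 to 3 and 3.67, 4.28 and 3.75% in I. The 18 genes that fell held 0.146, 0.149 and 0.141% in C and 0.0941, 0.0965 and 0.0909% in I. Replicates of I were close to each other for most of these genes: over the 280 that rose and averaged at least 5 CPM in I, the median coefficient of variation was 15.2%, against 12.5% over 11166 uncalled genes at that level. It was lowest for NAMPT (1.26%) and highest for BANCR (84.1%). I replicate 2 was the highest of the 3 for 191 of the 332 genes and I replicate 3 the lowest for 180.

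Stretches at the starts of 3 genes that rose show the elements that the pathway is known to use. The letters are from RefSeq (GRCh38.p14), from 250 bases before to 50 after the annotated start, 5′ to 3′ on the gene's strand, and capitals mark matches to GAS (TTCNNNGAA) or to the core of the ISRE (GAAANNGAAA), both strands searched. IRF1 (chr5:132490724-132491023, minus strand) is shown for a GAS match alone, GBP1 (chr1:89065159-89065458, minus strand) for an ISRE core match alone, and CD274 (chr9:5450292-5450591, plus strand) for both, with its pair of ISRE core matches overlapping.
IRF1: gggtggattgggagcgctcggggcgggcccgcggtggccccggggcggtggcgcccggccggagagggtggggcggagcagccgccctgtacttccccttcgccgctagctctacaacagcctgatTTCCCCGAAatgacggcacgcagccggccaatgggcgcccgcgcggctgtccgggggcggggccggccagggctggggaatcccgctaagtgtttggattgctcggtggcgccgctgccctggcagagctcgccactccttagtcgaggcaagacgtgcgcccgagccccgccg
GBP1: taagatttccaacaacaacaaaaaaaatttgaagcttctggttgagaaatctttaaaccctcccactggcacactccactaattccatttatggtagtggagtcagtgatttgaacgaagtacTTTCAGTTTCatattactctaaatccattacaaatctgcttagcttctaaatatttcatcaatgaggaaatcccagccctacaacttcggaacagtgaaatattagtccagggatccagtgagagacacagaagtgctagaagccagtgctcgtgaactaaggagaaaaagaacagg
CD274: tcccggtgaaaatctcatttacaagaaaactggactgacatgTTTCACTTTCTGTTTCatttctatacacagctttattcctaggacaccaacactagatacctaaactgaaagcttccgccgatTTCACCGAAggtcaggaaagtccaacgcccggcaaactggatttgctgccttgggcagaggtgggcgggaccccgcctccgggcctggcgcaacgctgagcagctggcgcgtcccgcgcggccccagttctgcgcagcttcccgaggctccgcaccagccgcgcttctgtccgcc

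A RefSeq start window was found for 198 of the 269 genes that rose at least 2-fold, with 283 windows, and for 11946 of the tested genes, with 17329 windows. GAS was in 18.02% of the 283 windows and the ISRE core in 25.4%, against 6.26 and 2.78% of all windows. Both stood together in 19 of the 283 windows and in 60 of all windows. The E-box CACGTG, the sequence bound by MYC and MYCN, was in 4.59% of the 283 windows and 9.09% of all. Of the 156 windows of genes that rose at least 2-fold and are in none of the interferon lists used here, 15.4% held GAS and 9.62% the ISRE core. Among genes that rose under 2-fold the shares were 12.4 and 11.2% of 89 windows, and the 9 genes that fell and had a window had 1 GAS match and 0 ISRE core matches in 12 windows. A match describes letters in this window and is not a binding site.

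Of 24 genes of the IFNγ receptor and JAK/STAT list, all tested, 8 rose and 1, SOCS2, fell, with a list median of 0.72 (log2). The receptor chains were expressed throughout. IFNGR1 had 30.8, 33.6 and 35.8 CPM in C and 32.8, 28.3 and 41.6 CPM in I, and IFNGR2 had 33.3, 36.6 and 36.96 CPM in C and 41.8, 43.5 and 44.96 CPM in I. IFNGR1 overlapped between groups, while IFNGR2 did not, and its call depended on the block (edgeR adjusted p = 0.319, or 0.0429 with the block). JAK1 had 49.05, 49.8 and 47.00 CPM in C and 57.3, 56.8 and 58.7 CPM in I (edgeR adjusted p = 0.775), while its partner kinase JAK2 had 4.92, 3.53 and 4.11 CPM in C and 32.2, 39.00 and 21.8 CPM in I. JAK2 rose, with every I library over 4 times the highest C library (log2 fold change 2.89, SE 0.27, edgeR adjusted p = 8.22e-05). STAT2 and STAT3 rose as well, by 2.51 and 1.94 on the log2 scale (edgeR adjusted p = 2.92e-05 and 0.00311). STAT5A had 14.4, 18.6 and 4.74 CPM in C and 45.4, 63.8 and 23.4 CPM in I, lowest in replicate 3 of both groups, and was called only with the block (edgeR adjusted p = 0.556 without and 0.00329 with it), while STAT4, STAT5B and STAT6 overlapped between groups.

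Of the feedback inhibitors SOCS1, SOCS3 and USP18 rose, while SOCS2 fell and is described with the other lowered genes. SOCS1, which binds JAK kinases and blocks them, had 0.676, 0.348 and 1.62 CPM in C and 45.7, 54.2 and 54.8 CPM in I (log2 fold change 5.89, SE 0.51, edgeR adjusted p = 3.88e-05). SOCS3 had 1.66, 1.99 and 0.312 CPM in C and 16.6, 18.98 and 8.44 CPM in I, with replicate 3 lowest in both groups (log2 fold change 3.46, SE 0.70, edgeR adjusted p = 0.0245). USP18, which removes ISG15 from proteins and restrains type I interferon signalling, had 0.307, 0.298 and 0 CPM in C and 13.2, 6.76 and 13.6 CPM in I (log2 fold change 5.72, SE 0.80, edgeR adjusted p = 0.00191). Groups did not overlap for any of the 3, although SOCS3 lost its call in 5 of the 6 fits that left out 1 library. CISH and the phosphatases PTPN1 and PTPN6 overlapped between groups. PTPN2, a phosphatase that acts on JAK1, had 19.2, 17.9 and 17.95 CPM in C and 36.8, 39.8 and 27.04 CPM in I and missed the threshold narrowly (edgeR adjusted p = 0.0521, or 0.00125 with the block).

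The IRF family and other induced transcription regulators gave 15 risers among 21 tested of 25, with a median log2 fold change of 5.67, or 4.35 with genes at 0 in C set to their bound. IRF1 (ENSG00000125347, chromosome 5, 132481609 to 132490798, minus strand), the first relay of the pathway, named after its values were seen, had 2.27, 2.33 and 1.81 CPM in C and 381, 409 and 442 CPM in I. All 3 I libraries were far above C and close to each other (log2 fold change 7.58, SE 0.18, edgeR adjusted p = 2.75e-09). Reads of IRF1 cannot be told from those of C5orf56 and another antisense gene that overlap its exons, since strand is not stated. IRF8, a factor best known from myeloid and B cells, had 0 counts in every C library and 26.5, 41.8 and 11.6 CPM in I, at least 154-fold higher against a floor of 3 counts per library. IRF9, a DNA-binding partner of STAT proteins, had 0.861, 0.894 and 0.436 CPM in C and 6.18, 5.34 and 3.30 CPM in I (log2 fold change 2.74, SE 0.39, edgeR adjusted p = 0.00207). NLRC5, the coactivator of class I genes, had 0.184, 0 and 0 CPM in C and 351, 431 and 308 CPM in I, and its ratio of I to C was 6339.5 (95% counting interval 2169 to 30743). Its class II counterpart CIITA had 0.799, 1.19 and 0.810 CPM in C and 3.51, 1.96 and 1.83 CPM in I, apart between groups but called only with the block (edgeR adjusted p = 0.140 without and 0.0281 with it).

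The MHC class I chains rose in every tested case, 6 of 6, from close to nothing for several of them. HLA-B had 0.246, 0 and 0 CPM in C and 82.98, 150.3 and 171 CPM in I, a ratio of 1752 (95% counting interval 684 to 6431). HLA-C had 0.0615, 0 and 0.0623 CPM in C and 54.6, 77.4 and 82.2 CPM in I, a ratio of 1861 (95% counting interval 515 to 15374). Groups lay far apart in both. HLA-E, a ligand of natural killer cell receptors, had 2.09, 2.93 and 0.312 CPM in C and 459, 569 and 492 CPM in I (log2 fold change 8.12, SE 0.69, edgeR adjusted p = 3.59e-05). HLA-F had 0 counts in C and 1.93, 1.04 and 1.94 CPM in I, at least 9.43-fold higher, and HLA-G was too low to test. B2M, the light chain that all of these share, had 80.2, 85.5 and 71.7 CPM in C and 1631, 2069 and 2198 CPM in I (log2 fold change 4.64, SE 0.17, edgeR adjusted p = 6.24e-08). The HLA genes are similar in sequence, so reads may be split between them, and HLA-B and HLA-C overlap in the annotation.

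Genes of peptide supply rose too. Of 10 genes of peptide transport and loading 6 rose (TAP1, TAP2, TAPBP, TAPBPL, ERAP1 and ERAP2), with a median of 3.16 over the 10. TAP1, a chain of the channel that carries peptides into the endoplasmic reticulum, had 0.615, 0 and 0 CPM in C and 1242, 1285 and 1464 CPM in I (log2 fold change 12.71, SE 0.62, edgeR adjusted p = 3.53e-06). TAP2, the other chain of the channel, had 0.0615, 0 and 0 CPM in C and 102, 107 and 109 CPM in I, a ratio of 5556 (95% counting interval 997 to 219469). Both were next to absent in C and alike across the I libraries. TAPBP, the bridge between TAP and class I, had 21.6, 18.6 and 25.9 CPM in C and 244, 223 and 311 CPM in I (log2 fold change 3.56, SE 0.19, edgeR adjusted p = 1.09e-06). ERAP2, which trims peptides, had 0.922, 1.49 and 0.436 CPM in C and 11.6, 16.4 and 7.44 CPM in I and lost its call in 3 of the 6 fits with 1 library left out (log2 fold change 3.61, SE 0.68, edgeR adjusted p = 0.0146).

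All 3 inducible catalytic subunits of the immunoproteasome rose. PSMB8 had 0.123, 0 and 0 CPM in C and 138, 125 and 215 CPM in I, a ratio of 4177 (95% counting interval 1156 to 34497). PSMB9 had 0.123, 0 and 0 CPM in C and 268, 246 and 413 CPM in I, a ratio of 8105 (95% counting interval 2243 to 66934). PSMB10 had 0.615, 0.944 and 0.499 CPM in C and 39.9, 35.1 and 43.4 CPM in I (log2 fold change 5.81, SE 0.35, edgeR adjusted p = 2.17e-06). PSMB8 and PSMB9 were highest in replicate 3, and their exons overlap each other and PSMB8-AS1, so part of each value may belong to a neighbour. The activator subunits PSME1 and PSME2 rose by 2.75 and 2.59 (log2, edgeR adjusted p = 7.12e-06 and 7.68e-07), which makes 5 of 7 in that list. PSMB5, PSMB6 and PSMB7, the constitutive subunits that the inducible ones replace, gave 0 calls of 3: PSMB7, for example, had 197, 196 and 189.8 CPM in C and 202, 185 and 189 CPM in I, with overlapping groups (edgeR adjusted p = 1).

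**Figure D2:**
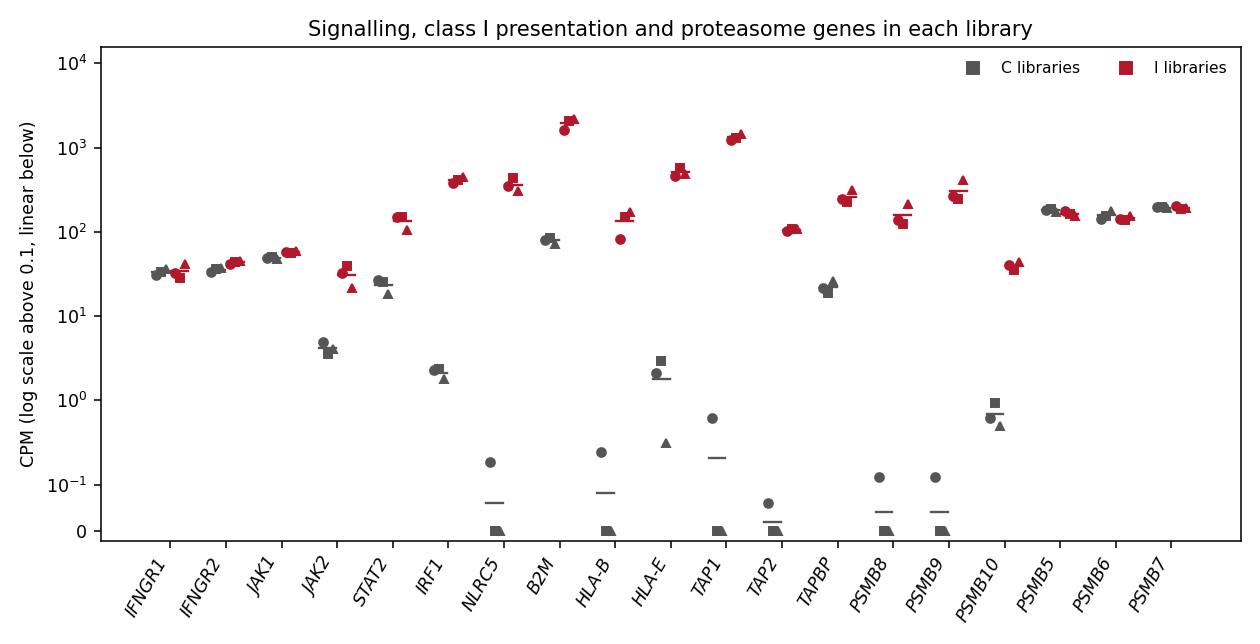
Level of signalling and antigen presentation genes in each library, in CPM on a log axis that is linear below 0.1, with C in grey, I in red, circles, squares and triangles for replicates 1 to 3 and bars for group means. The receptor chain IFNGR1 and the constitutive subunit PSMB7 overlap between groups, while class I, transport and immunoproteasome genes are wholly higher in I.

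Most MHC class II genes stayed near the floor. Of 15 genes in the class II list 5 had enough counts to be tested, and 3 of them rose. CD74, the invariant chain, had 9.59, 11.5 and 12.3 CPM in C and 45.2, 59.2 and 57.4 CPM in I (log2 fold change 2.27, SE 0.35, edgeR adjusted p = 0.00355). CTSS, the protease that trims it, had 0.123, 0.0993 and 0 CPM in C and 2.42, 3.65 and 1.52 CPM in I, a ratio of 32.99 (95% counting interval 12.6 to 123). HLA-DOB had 0 counts in C and 1.39, 1.15 and 1.57 CPM in I, at least 7.88-fold higher. Groups did not overlap in any of the 3. The class II chain HLA-DRA, by contrast, had 0, 3 and 4 counts in C and 3, 1 and 0 in I and was not tested, so a change was not detectable at this depth.

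Guanylate-binding proteins, GTPases that attack the compartments of intracellular microbes, rose in 6 of 6 tested genes of 7. GBP1 (ENSG00000117228, chromosome 1, 89052319 to 89065360, minus strand) had 0.184, 0 and 0 CPM in C and 1429, 1408 and 1279 CPM in I, so that 3 counts over the 3 C libraries stood against 79109 over the I libraries, a ratio of 24000.4 (95% counting interval 8212 to 116383). GBP4 had 0.123, 0.447 and 0 CPM in C and 393, 477 and 381 CPM in I (log2 fold change 10.93, SE 0.47, edgeR adjusted p = 1.80e-07). GBP5 had 0 counts in C and 4.01, 9.22 and 2.93 CPM in I, at least 31.1-fold higher. Levels of GBP1 and GBP4 differed little between I libraries, while those of GBP5 spread about 3-fold. The list median was 10.31 (log2), or 7.83 with bounds.

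Antiviral effectors gave 30 risers among 36 tested of 43, with a median of 3.61, or 3.08 with bounds. IFIT3, which binds foreign RNA together with other IFIT proteins, had 0.123, 0 and 0.0623 CPM in C and 257, 348 and 215 CPM in I, a ratio of 4752 (95% counting interval 1626 to 23046). OAS3, an enzyme that makes the signal for RNase L, had 0 counts in C and 50.6, 64.1 and 32.5 CPM in I, at least 283-fold higher. IFITM1, a membrane protein that blocks viral entry, had 0.0615, 0.149 and 0 CPM in C and 130.4, 204 and 74.99 CPM in I, a ratio of 1778 (95% counting interval 694 to 6528). Every I library was far above C in each. Other well known members barely appeared. MX1 had 0, 0 and 0 counts in C and 24, 7 and 5 in I, and OAS2 had 0, 0 and 0 counts in C and 20, 16 and 2 in I, which was too few in both cases for testing.

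Sensors of foreign RNA rose, with 6 risers among 11 tested sensing genes of 14. DDX60 had 0 counts in C and 62.3, 61.2 and 70.6 CPM in I, at least 373-fold higher. IFIH1, the sensor MDA5, had 0.184, 0 and 0 CPM in C and 34.1, 25.03 and 34.1 CPM in I, a ratio of 545 (95% counting interval 186 to 2648). RIGI had 1.54, 2.14 and 1.68 CPM in C and 39.6, 45.4 and 27.98 CPM in I (log2 fold change 4.39, SE 0.26, edgeR adjusted p = 2.10e-06). Of these RIGI alone was clearly detected in untreated cells. CGAS, ZBP1 and AIM2, which sense DNA or Z-form nucleic acids, were too low to test.

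Genes for tagging proteins rose together. Of 6 genes of ISG15 conjugation 4 rose, including the modifier and the enzymes that load it. ISG15 had 18.1, 12.8 and 10.3 CPM in C and 294, 267 and 227 CPM in I (log2 fold change 4.26, SE 0.22, edgeR adjusted p = 6.56e-07), its activating enzyme UBA7 had 0.0615, 0.0497 and 0 CPM in C and 35.7, 38.8 and 40.5 CPM in I, a ratio of 1004 (95% counting interval 278 to 8295), and the conjugating enzyme UBE2L6 had 71.2, 70.4 and 58.2 CPM in C and 843, 894 and 751 CPM in I (log2 fold change 3.64, SE 0.15, edgeR adjusted p = 1.67e-07). All 3 were wholly higher in I. Of 7 genes of the PARP list, whose products attach ADP-ribose, 5 rose, with a median of 5.32 (log2). PARP14 had 3.87, 3.72 and 1.62 CPM in C and 471, 467 and 405 CPM in I (log2 fold change 7.17, SE 0.35, edgeR adjusted p = 5.45e-07), and DTX3L, a ubiquitin ligase that pairs with PARP9, had 3.995, 6.41 and 3.74 CPM in C and 197, 233 and 245 CPM in I (log2 fold change 5.56, SE 0.21, edgeR adjusted p = 7.47e-08). DTX3L shares exonic positions with PARP9 on the other strand.

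Apolipoprotein L genes rose in 5 of 5 tested genes of 6, with a median of 11.18 or 9.87 with bounds. APOL1, a trypanosome-killing factor in serum, had 0.123, 0.0993 and 0 CPM in C and 345, 385 and 197 CPM in I, a ratio of 4050.2 (95% counting interval 1582 to 14866). APOL3 had 0 counts in C and 120.2, 157 and 63.2 CPM in I, at least 653-fold higher. APOL6 had 0.246, 1.19 and 0 CPM in C and 491, 614 and 373 CPM in I (log2 fold change 9.87, SE 0.68, edgeR adjusted p = 5.94e-06). Replicate 3 was lowest of the I libraries in each of these 3.

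Of 26 chemokines and cytokines only 10 had enough counts, and 5 of those rose (CXCL9, CX3CL1, IL15, IL18BP and CSF1). CXCL9, which draws T cells through CXCR3, had 0 counts in C and 1.48, 1.42 and 2.67 CPM in I, at least 10.7-fold higher, but lost its call in 4 of the 6 fits with 1 library left out. Its relative CXCL10 had 0, 0 and 0 counts in C and 1, 0 and 0 in I, and CXCL11 had 3, 0 and 0 counts in C and 10, 8 and 3 in I, so neither was tested. The paper measured CXCL10 in IFNγ-treated SK-N-DZ cells by other assays, qPCR and ELISA, and reports less of it after ARID1A knockdown. Why CXCL10 was nearly absent from these counts was not tested. IL15, a growth factor of natural killer and memory T cells, had 0.307, 0.546 and 0.312 CPM in C and 23.6, 24.5 and 17.3 CPM in I (log2 fold change 5.77, SE 0.61, edgeR adjusted p = 1.97e-04). CSF1, a growth factor of macrophages, had 1.91, 2.43 and 2.37 CPM in C and 42.1, 42.8 and 27.7 CPM in I (log2 fold change 4.06, SE 0.22, edgeR adjusted p = 1.01e-06). IL18BP, a decoy that neutralizes IL18, had 7.13, 7.25 and 6.98 CPM in C and 116, 104 and 119.7 CPM in I (log2 fold change 3.99, SE 0.18, edgeR adjusted p = 2.00e-07). The 3 were wholly higher in I. Of 8 tested receptors 2 rose, IL15RA, with 0 counts in C and 3.22, 4.69 and 3.56 CPM in I, and TNFRSF1A, with 30.6, 30.4 and 22.8 CPM in C and 99.1, 102 and 66.03 CPM in I (log2 fold change 1.67, SE 0.25, edgeR adjusted p = 0.00331).

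Of 8 tested genes in a list of checkpoint ligands and related surface proteins 3 rose, and 5 with the block, which added NECTIN2 and the receptor CD40. CD274, the PD-L1 gene (ENSG00000120217, chromosome 9, 5450503 to 5470566, plus strand), had 0.123, 0 and 0 CPM in C and 9.15, 8.84 and 9.33 CPM in I, a ratio of 239 (95% counting interval 65.8 to 1978). CD47, the signal that holds off macrophages, had 69.4, 108 and 68.4 CPM in C and 202, 245 and 184 CPM in I (log2 fold change 1.36, SE 0.21, edgeR adjusted p = 0.00399). TNFRSF14 had 0.615, 0 and 0.312 CPM in C and 21.03, 19.3 and 21.96 CPM in I (log2 fold change 6.10, SE 0.68, edgeR adjusted p = 3.28e-04). All 3 were close across the I replicates. A list of natural killer cell receptor ligands left out HLA-E, which rose as given above. Of its 5 tested genes 0 were called, and 1, MICB, with the block. NCR3LG1, for example, had 67.1, 105 and 25.4 CPM in C and 64.7, 105 and 27.6 CPM in I, the same order of replicates in both groups (edgeR adjusted p = 1). The adhesion molecules ICAM1 and VCAM1, 2 of 6 tested, rose: ICAM1 had 0, 0.149 and 0 CPM in C and 30.5, 49.9 and 29.5 CPM in I, a ratio of 635 (95% counting interval 217 to 3082).

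Enzymes of amino acid and cofactor metabolism were among the risers. IDO1, which opens tryptophan breakdown, had 0 counts in C and 62.2, 105 and 43.7 CPM in I, at least 405-fold higher. WARS1, the tryptophanyl-tRNA synthetase, had 50.9, 52.8 and 63.02 CPM in C and 877, 1170.5 and 611 CPM in I (log2 fold change 3.99, SE 0.32, edgeR adjusted p = 2.38e-05). KYAT3, a kynurenine aminotransferase, had 21.3, 19.96 and 20.01 CPM in C and 40.1, 40.3 and 30.8 CPM in I (log2 fold change 0.86, SE 0.14, edgeR adjusted p = 0.00433). These are the 3 that rose among 7 tested in that list, and IDO1 overlaps an antisense gene. GCH1, the first enzyme of tetrahydrobiopterin synthesis and the 1 riser among 17 tested genes of catecholamine synthesis and storage, where the block added SCG2, had 18.6, 17.4 and 23.9 CPM in C and 49.4, 59.5 and 55.2 CPM in I (log2 fold change 1.46, SE 0.21, edgeR adjusted p = 0.00255). ASS1, which joins citrulline and aspartate and was named after its values were seen, had 128, 185 and 34.2 CPM in C and 1051, 1525 and 619 CPM in I, with replicate 3 lowest in both groups (log2 fold change 3.20, SE 0.60, edgeR adjusted p = 0.0151). It lost its call without C replicate 1 and without I replicate 2.

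Complement genes rose in 8 of 14 tested. C1S, a protease of the first component, had 2.34, 2.53 and 0.810 CPM in C and 135, 167 and 76.4 CPM in I (log2 fold change 6.03, SE 0.48, edgeR adjusted p = 2.07e-05). C2 had 0.0615, 0.199 and 0.249 CPM in C and 25.3, 26.7 and 23.1 CPM in I, a ratio of 146 (95% counting interval 76.6 to 319.6). C4B had 0.184, 0.199 and 0.374 CPM in C and 20.7, 34.9 and 39.9 CPM in I (log2 fold change 6.96, SE 0.85, edgeR adjusted p = 7.03e-04). The groups were far apart in each, but C4B cannot be told from its near copy C4A, and C2 overlaps CFB, which lost its call in 4 of the 6 fits with 1 library left out.

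Of 25 tested genes of death receptors, caspases and pyroptosis 5 rose, among them CASP1, CASP8, XAF1 and MLKL, and 1, TNFRSF10D, fell. With the block 9 rose, adding FAS, BAK1, RIPK1 and GSDMD. XAF1 had 0 counts in C and 6.78, 11.6 and 2.31 CPM in I, at least 39.7-fold higher. MLKL, the executioner of necroptosis, had 0 counts in C and 1.09, 1.69 and 0.629 CPM in I, at least 6.55-fold higher. CASP1 was as low and lost its call in 5 of the 6 fits with 1 library left out. Among 12 tested genes of NF-kB 1, TNFAIP2, rose, and it lost its call in 5 of those fits. With the block BCL3 also rose and NFKBIB fell.

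Over all interferon-related lists, 138 of 259 tested genes rose and 2 fell, against 2.10 and 0.114% of all tested genes. The 351 genes of these lists held 0.784, 0.857 and 0.794% of counts in C replicates 1 to 3 (mean 0.812% ± 0.0397 SD) and 2.83, 3.21 and 2.81% in I (2.95% ± 0.223 SD). I was wholly higher. The lists were chosen with earlier results of these data known, so these counts and shares describe the response and test nothing.

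**Figure D3:**
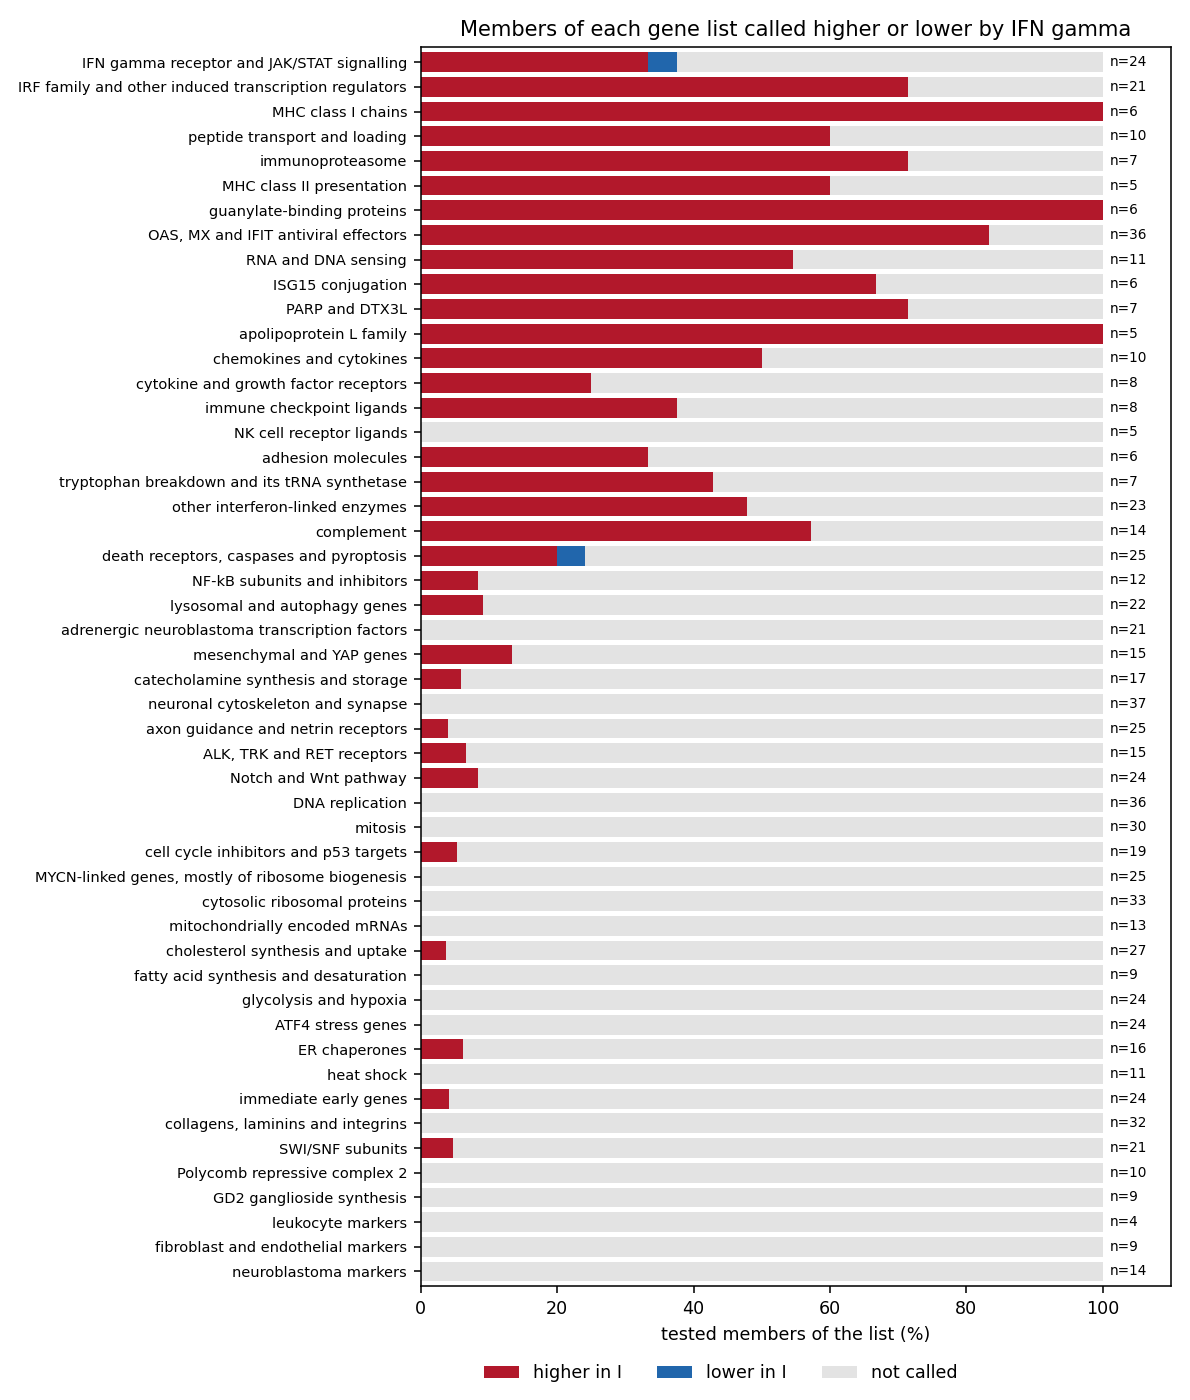
Share of the tested genes of each list with at least 4 tested genes that rose (red), fell (blue) or were not called (grey), in percent, by edgeR at a BH adjusted p under 0.05. Interferon lists stand out, with guanylate-binding proteins, MHC class I chains and apolipoproteins L at 100%, and lists of growth and housekeeping genes are almost wholly grey.

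The remaining 194 genes that rose are in none of these lists, and 138 of them rose at least 2-fold. Butyrophilins of the BTN3A family, which take part in the sensing of phosphoantigens by γδ T cells, were among the strongest. BTN3A3 had 0.123, 0 and 0 CPM in C and 49.03, 57.7 and 47.3 CPM in I, a ratio of 1343 (95% counting interval 372 to 11098), BTN3A2 had 0.492, 0 and 0 CPM in C and 68.1, 65.99 and 79.1 CPM in I, a ratio of 466 (95% counting interval 236 to 1080.1), and BTN3A1 had 0.246, 0.199 and 0.436 CPM in C and 72.4, 56.1 and 84.9 CPM in I (log2 fold change 7.92, SE 0.41, edgeR adjusted p = 8.24e-07). Levels were alike in the 3 I libraries for all 3 genes, which are close copies and may share reads. PLAAT4, a growth-suppressing phospholipase, had 0.0615, 0 and 0 CPM in C and 154, 214 and 96.4 CPM in I, a ratio of 8077 (95% counting interval 1449 to 319048). SECTM1, a secreted ligand of CD7 on T cells and natural killer cells, had 0.307, 0.248 and 0 CPM in C and 45.2, 70.8 and 41.7 CPM in I (log2 fold change 8.07, SE 1.28, edgeR adjusted p = 0.00453). HAPLN3, a link protein of hyaluronan, had 0.799, 0.0993 and 1.06 CPM in C and 89.9, 104 and 73.5 CPM in I (log2 fold change 7.14, SE 0.49, edgeR adjusted p = 6.17e-06). Each was wholly higher in I.

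Transporters and vesicle proteins were in the same group. SLC15A3, a lysosomal carrier of peptides and histidine, had 0.492, 0.149 and 0.187 CPM in C and 24.4, 40.5 and 25.3 CPM in I (log2 fold change 6.77, SE 0.41, edgeR adjusted p = 2.37e-06). SLC12A7, a potassium and chloride cotransporter, had 0.0615, 0.199 and 0.187 CPM in C and 46.9, 76.5 and 39.1 CPM in I, a ratio of 352 (95% counting interval 179 to 817). VAMP5 had 0, 0.248 and 0.499 CPM in C and 51.7, 62.3 and 56.5 CPM in I (log2 fold change 7.80, SE 0.58, edgeR adjusted p = 6.56e-05). All 3 were within 2-fold across the I libraries. MT2A, a metal-binding metallothionein named after its values were seen, had 0.676, 1.89 and 0.873 CPM in C and 44.7, 47.9 and 30.2 CPM in I (log2 fold change 5.12, SE 0.41, edgeR adjusted p = 2.07e-05), and its near copies may share reads.

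Other risers included genes best known from muscle or from neurons. DES, the intermediate filament of muscle, had 0.615, 1.54 and 1.68 CPM in C and 73.6, 132 and 54.8 CPM in I, with replicate 2 highest in I (log2 fold change 6.07, SE 0.64, edgeR adjusted p = 2.12e-04). C11orf87 had 0 counts in C and 6.04, 3.22 and 15.1 CPM in I, at least 46.8-fold higher. CHD5, a chromatin remodeller of neurons in the chromosome 1 region often deleted in neuroblastoma, had 0.0615, 0.0497 and 0.436 CPM in C and 14.3, 14.6 and 6.87 CPM in I, a ratio of 69.5 (95% counting interval 36.4 to 153). TCIM and ERP27 rose from 1 and 2 counts over the C libraries to 3.17, 9.49 and 7.60 and 5.39, 8.40 and 2.31 CPM in I.

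**Figure D4:**
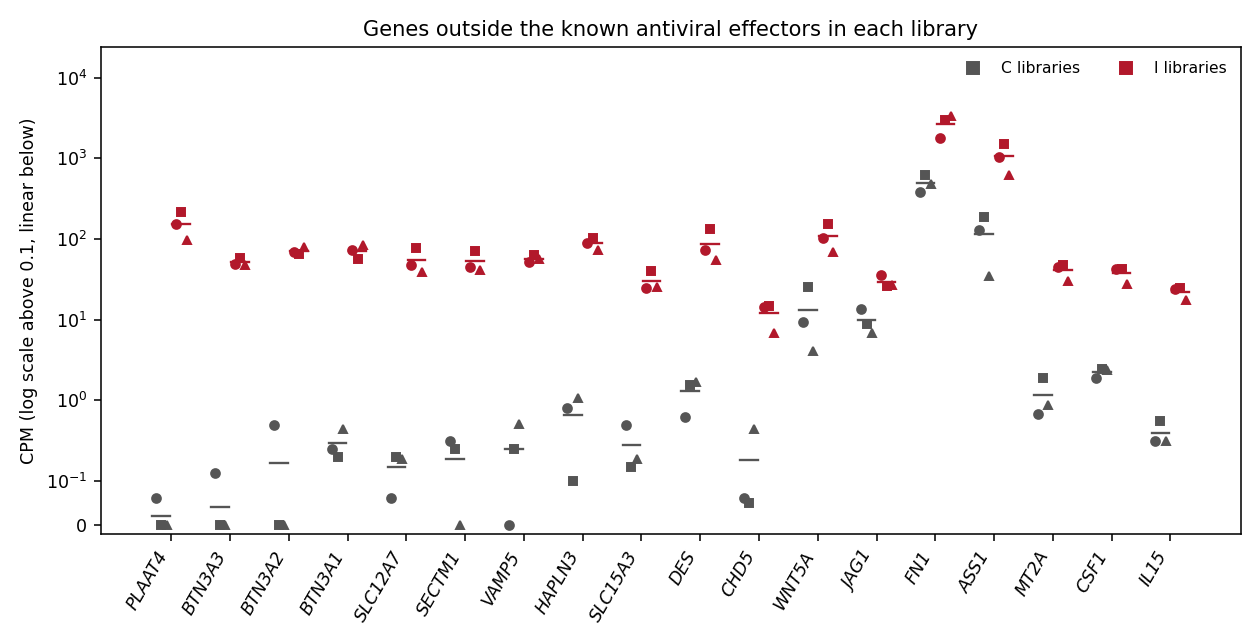
Level in each library of genes that rose outside the known antiviral effectors, with the cytokines CSF1 and IL15, in CPM on a log axis that is linear below 0.1, with C in grey, I in red, circles, squares and triangles for replicates 1 to 3 and bars for group means. No gene shown overlaps between C and I, and several stand at 0 in some of the C libraries.

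Genes that do not code for protein made up 21 of the 332 risers (6.33%, against 14.7% of all tested genes), with 7 antisense genes and 6 lincRNAs. GBP1P1, a pseudogene related to GBP1, had 0, 0 and 0.125 CPM in C and 71.4, 69.4 and 58.1 CPM in I, a ratio of 1741 (95% counting interval 482 to 14378), and its reads may come from GBP1. PSMB8-AS1 had 0 counts in C and 15.04, 14.9 and 18.3 CPM in I, but shares positions with PSMB8, PSMB9 and TAP1. HCP5, within the MHC class I region, had 0 counts in C and 1.88, 2.62 and 2.46 CPM in I, at least 13.4-fold higher. BANCR, a long noncoding RNA first described in melanoma, had 0 counts in C and 14.6, 23.8 and 1.52 CPM in I. Its I libraries spread more than those of the others, and it lost its call in 5 of the 6 fits with 1 library left out.

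The regulators of neuroblastoma identity showed no call by the test used throughout. Of 21 adrenergic transcription factors, all tested, 0 were called, with a median of −0.16 (log2). MYCN, the amplified oncogene, had 1330.4, 1081 and 1253 CPM in C and 1029.7, 879 and 886 CPM in I. Every I library was below every C library, but the difference passed only with the block (log2 fold change −0.39, SE 0.16, edgeR adjusted p = 0.478, or 0.00902 with the block). INSM1 gave −0.42 (edgeR adjusted p = 0.594, or 0.00745 with the block). PHOX2A, a driver of noradrenergic identity, had 855, 837 and 895 CPM in C and 1081, 1111 and 1218 CPM in I, wholly higher in I and close to the threshold (edgeR adjusted p = 0.0517, or 0.0115 with the block). DESeq2 and a filter at a mean of at least 1 CPM also called PHOX2A, both without a block.

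Of 15 tested mesenchymal genes 2 rose, FN1 and RUNX1, and the list median was −0.18. FN1, fibronectin, had 379, 621 and 487 CPM in C and 1786, 2985 and 3330.1 CPM in I, wholly higher in I (log2 fold change 2.45, SE 0.34, edgeR adjusted p = 0.00189). RUNX1 had 0 counts in C and 2.77, 3.22 and 0.891 CPM in I, at least 13.2-fold higher. Of 32 tested collagens, laminins and integrins 0 were called, and with the block 5 rose and ITGB5 fell. Of 15 tested genes of the ALK, TRK and RET list 1 rose, and with the block 3 rose, ALK and GFRA1 among them. In the Notch and Wnt list 2 of 24 tested genes rose, and 3 with the block, with a list median of 0.21 (log2). WNT5A had 9.22, 25.6 and 4.05 CPM in C and 103, 152 and 68.4 CPM in I, lowest in replicate 3 of both groups (log2 fold change 3.05, SE 0.59, edgeR adjusted p = 0.0184), and the Notch ligand JAG1 had 13.6, 8.89 and 6.73 CPM in C and 35.8, 26.02 and 26.5 CPM in I (log2 fold change 1.60, SE 0.27, edgeR adjusted p = 0.00724). WNT5A lost its call in 3 of the 6 fits with 1 library left out.

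Neuronal lists held 0 or 1 called genes each, where 2.21% of all tested genes were called. Of 37 genes of the neuronal cytoskeleton and synapse, all tested, 0 were called, and 3 with the block, among them GAP43 and CNTNAP2, which fell. STMN2, for example, had 449, 369 and 461 CPM in C and 424, 434 and 543 CPM in I, with overlapping groups (edgeR adjusted p = 1). Of 25 tested axon guidance genes 1 rose, NEO1, with 96.3, 102 and 85.8 CPM in C and 146, 173 and 139.5 CPM in I (log2 fold change 0.69, SE 0.11, edgeR adjusted p = 0.00472), and with the block 10 rose, against 4.88% of all tested genes, and NRP2 fell. Among those 10 was PLXNA4, with 13.3, 32.7 and 1.43 CPM in C and 48.7, 97.7 and 13.6 CPM in I, which was lowest in replicate 3 and highest in replicate 2 of both groups (edgeR adjusted p = 0.0192 with the block). The median of the axon guidance list was 0.35 (log2) in I against C but −0.0065 in DI against D. All 9 genes of GD2 ganglioside synthesis, the pathway behind the antigen of antibody therapy, were tested and 0 were called.

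Genes of growth leaned down without passing the test. Of 36 DNA replication genes 35 had a log2 fold change below 0, as did 24 of 25 MYCN-linked genes, mostly of ribosome biogenesis, and 32 of 33 cytosolic ribosomal proteins, but 0 genes of any of the 3 lists were called. Their medians were −0.20, −0.26 and −0.11 (log2), against −0.0081 over all tested genes. Genes of such a list share their libraries and are not independent of each other. A list can lean upward in the same way: of 24 genes of glycolysis and hypoxia 23 lay above 0, with a median of 0.12 (log2) and 0 called. With the block 5 replication genes (MCM3, MCM6, CDC6, RFC4 and E2F1), 4 MYCN-linked genes (DKC1, WDR12, MYBBP1A and MRTO4) and 2 ribosomal proteins (RPL5 and RPL6) fell. Of 30 mitosis genes 0 were called with or without the block, and TOP2A, for example, had 1084, 1058 and 1151 CPM in C and 1170.0, 1061 and 1196 CPM in I (edgeR adjusted p = 1). CDKN2A, which encodes inhibitors of the cell cycle, rose as the 1 call of 19 tested in its list, with 35.5, 38.7 and 48.6 CPM in C and 78.6, 71.3 and 97.3 CPM in I (log2 fold change 1.01, SE 0.17, edgeR adjusted p = 0.00709), and lost its call without C replicate 1, while the block added TP53INP1.

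Metabolic, stress, mitochondrial and lysosomal lists gave 4 calls among 146 tested genes (2.74%), close to the 2.21% of all tested genes. Of 27 cholesterol genes 1 rose, STARD4, which lost its call in 4 of the 6 fits with 1 library left out, and of 16 chaperones of the endoplasmic reticulum 1 rose, PDIA6, with 173, 165 and 167 CPM in C and 279, 316 and 258 CPM in I (log2 fold change 0.75, SE 0.10, edgeR adjusted p = 0.00137). Of 24 genes of glycolysis and hypoxia, 24 ATF4 stress genes, 11 heat shock genes, 9 of fatty acid synthesis and 13 mitochondrially encoded mRNAs 0 were called, and the block added ACSS2 (higher) and EPAS1 (lower). Of 22 lysosomal and autophagy genes 2 rose: OPTN, an autophagy receptor, had 11.99, 14.4 and 20.3 CPM in C and 114, 172 and 154 CPM in I (log2 fold change 3.24, SE 0.34, edgeR adjusted p = 1.86e-04), and CALCOCO2, another, had 52.7, 53.2 and 41.8 CPM in C and 126, 133 and 92.97 CPM in I (log2 fold change 1.25, SE 0.18, edgeR adjusted p = 0.00235). Both were wholly higher in I. Of 21 subunits of SWI/SNF, the remodelling complex that holds ARID1A, 1 rose, SMARCD3, with 8.30, 10.5 and 7.73 CPM in C and 20.7, 20.9 and 19.7 CPM in I (log2 fold change 1.21, SE 0.25, edgeR adjusted p = 0.0260), and it lost its call in 5 of the 6 fits with 1 library left out. Of 24 immediate early genes 1, KLF6, rose, and it lost its call in 4 of those fits. Of 10 genes of Polycomb repressive complex 2 and 9 tested fibroblast and endothelial markers 0 were called. The block added ZFP36 to the immediate early genes, LAMP2 to the lysosomal genes, and PDGFRB and COL1A2 to the fibroblast markers, all higher.

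The 18 genes that fell were few and mostly moderate. SOCS2 (ENSG00000120833, chromosome 12, 93569814 to 93583487, plus strand), a feedback inhibitor of growth hormone signalling, had 24.7, 21.9 and 31.6 CPM in C and 3.46, 1.85 and 3.88 CPM in I. It fell most, opposite to SOCS1 and SOCS3, with no overlap (log2 fold change −3.08, SE 0.37, edgeR adjusted p = 5.47e-04). The antisense gene SOCS2-AS1 had 2.58, 2.33 and 2.87 CPM in C and 0.544, 0.382 and 0.943 CPM in I (log2 fold change −2.04, SE 0.43, edgeR adjusted p = 0.0297). The exons of the pair overlap, so their reads cannot be told apart. TNFRSF10D, a decoy receptor for the death ligand TRAIL, had 22.2, 12.2 and 25.1 CPM in C and 6.23, 3.60 and 5.66 CPM in I, with replicate 2 lowest in both groups (log2 fold change −1.94, SE 0.32, edgeR adjusted p = 0.00623).

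Membrane proteins were next. SLC2A4, the insulin-responsive glucose carrier, had 4.36, 3.13 and 2.99 CPM in C and 0.990, 0.436 and 1.05 CPM in I (log2 fold change −2.07, SE 0.39, edgeR adjusted p = 0.0154). PLPPR4, a lipid phosphatase-related protein of neurons, had 48.99, 52.9 and 32.04 CPM in C and 15.7, 17.3 and 11.2 CPM in I (log2 fold change −1.60, SE 0.26, edgeR adjusted p = 0.00588). PARM1, a mucin-like protein, had 3.07, 3.77 and 4.36 CPM in C and 1.29, 1.58 and 1.10 CPM in I (log2 fold change −1.49, SE 0.29, edgeR adjusted p = 0.0173). All 3 were wholly lower in I, and SLC2A4 lost its call without C replicate 1 and without I replicate 2, and PARM1 in 4 of the 6 fits with 1 library left out. CLN8, a membrane protein of the endoplasmic reticulum mutated in a ceroid lipofuscinosis, had 17.6, 19.3 and 19.4 CPM in C and 9.60, 10.4 and 11.4 CPM in I (log2 fold change −0.84, SE 0.14, edgeR adjusted p = 0.00621).

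Genes that do not code for protein made up 5 of the 18 (27.8%, against 14.7% of all tested genes). LINC00641 had 35.96, 38.8 and 42.4 CPM in C and 12.02, 12.3 and 13.4 CPM in I (log2 fold change −1.64, SE 0.16, edgeR adjusted p = 1.18e-04), the smallest adjusted p among genes that fell. DANCR, a long noncoding RNA that hosts small nucleolar RNAs, had 102, 99.5 and 96.1 CPM in C and 59.3, 44.3 and 37.5 CPM in I (log2 fold change −1.08, SE 0.16, edgeR adjusted p = 0.00332). LINC00641 was close to level within each group, and DANCR was lowest in I replicate 3, with no overlap in either. The pseudogene ADCY10P1 had 11.99, 10.4 and 11.1 CPM in C and 6.04, 5.73 and 5.50 CPM in I (log2 fold change −0.95, SE 0.15, edgeR adjusted p = 0.00460), and MIR600HG had 21.5, 19.2 and 19.01 CPM in C and 11.9, 14.5 and 12.1 CPM in I (log2 fold change −0.63, SE 0.14, edgeR adjusted p = 0.0431). MIR600HG lost its call in all 6 fits with 1 library left out, as did RBPMS2 (−0.87, log2, edgeR adjusted p = 0.0392), and SOCS2-AS1 in 5.

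Among the more abundant genes that fell was SCRT1, a zinc finger repressor of neurons, with 80.95, 66.9 and 88.7 CPM in C and 47.2, 45.9 and 54.1 CPM in I (log2 fold change −0.68, SE 0.12, edgeR adjusted p = 0.0114). ZNF778, another zinc finger gene, had 42.8, 40.2 and 43.4 CPM in C and 21.4, 25.8 and 18.6 CPM in I (log2 fold change −0.94, SE 0.15, edgeR adjusted p = 0.00473). RPL23, a ribosomal protein outside the list above, had 827, 829 and 791 CPM in C and 624, 644 and 624 CPM in I (log2 fold change −0.37, SE 0.07, edgeR adjusted p = 0.0178). The groups lay apart in each, but RPL23 lost its call in 5 of the 6 fits with 1 library left out and SCRT1 in 4. GATD1, COCH and FAM172A fell by 0.55, 0.62 and 0.70 on the log2 scale (edgeR adjusted p = 0.00883, 0.0313 and 0.00763), and COCH lost its call in 4 of the 6 fits with 1 library left out.

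**Figure D5:**
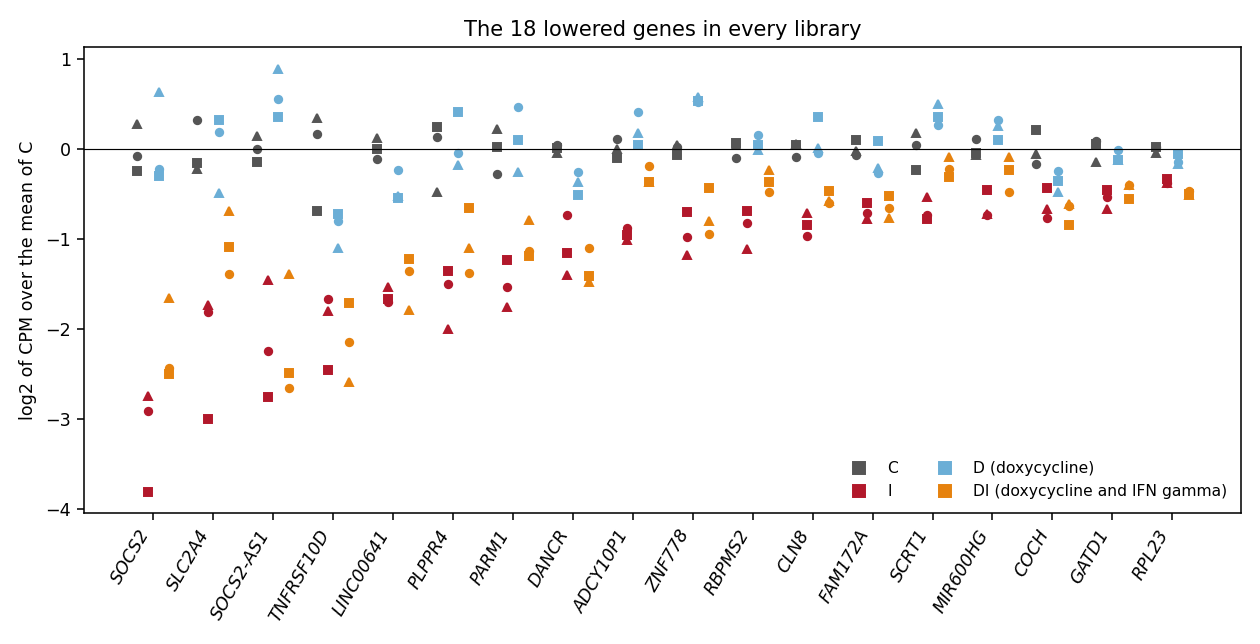
Level of the 18 genes that fell, as log2 CPM relative to the mean of C, in each library of C, I, D and DI. In every gene the 3 I libraries lie below the 3 C libraries, and the DI libraries below the D libraries.

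The same measure can be read in the 6 libraries with doxycycline, none of which is in C or I, although same-numbered libraries vary together across groups. In DI against D 265 genes (1.67%) were higher and 8 (0.0505%) lower. All 332 genes that rose in I had the same sign in DI against D, 249 were called and 326 did not overlap, with a median of 2.53 (log2). Of all tested genes 71.2% had the same sign, 5.77% lay wholly higher in DI than in D and 3.78% wholly lower. All 18 genes that fell had the same sign and did not overlap, with a median of −0.81, and 8 were called: SOCS2, SOCS2-AS1, LINC00641, DANCR, ZNF778, CLN8, SCRT1 and RPL23. For SOCS2, D had 22.4, 21.2 and 40.4 CPM and DI 4.82, 4.61 and 8.24 CPM (log2 fold change −2.24, edgeR adjusted p = 0.00520). For TNFRSF10D, D had 11.3, 12.01 and 9.21 CPM and DI 4.47, 6.05 and 3.29 CPM, with the D libraries already below every C library (edgeR adjusted p = 0.120). Of the 180 genes that fell with the block, 173 had the same sign in DI against D and 104 did not overlap between C and I.

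The difference between the responses without and with doxycycline, tested as an interaction, had 0 called genes (0%) by edgeR, with 99 at an unadjusted p under 0.05, and 2 by DESeq2 (RIGI and IL18BP).

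Many genes that rose at least 2-fold lay near each other. Of them, 83 of 269 (30.9%) had another such gene within 100 kb, against 788 of 15559 other tested genes (5.06%). They formed 11 clusters of 3 or more, with 45 genes in all. On chromosome 1, 7 of them lay between 89006666 and 89272804 (GENCODE 29, GRCh38), 6 of which are GBP genes. On chromosome 6, HLA-DOB, TAP2, PSMB8, PSMB8-AS1, PSMB9 and TAP1 lay between 32812763 and 32859585, the BTN3A genes with BTN2A2 between 26365159 and 26453415, and C2, CFB, C4A and C4B between 31897785 and 32035418. IFIT1, IFIT2, IFIT3 and IFIT5 formed a cluster on chromosome 10 and APOL1, APOL2, APOL3 and APOL4 on chromosome 22. SMTNL1, UBE2L6, SERPING1 and YPEL4 formed 1 on chromosome 11. Several of these families are near copies of each other, and overlapping genes within them may share reads.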

How the data were processed

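Total RNA was extracted with a Qiagen column kit and sequenced on an Illumina NovaSeq by Novogene. The authors deposited raw counts per gene for 43769 genes, all found by identifier in GENCODE 29 (GRCh38). The aligner, the counting tool and the strand setting are not given in the sources used here. DESeq2 is named in the submitters' processing notes. Deposited tables with the authors' log2 fold changes and p-values were not used, nor were 18 per-library columns whose names match no sample label.

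Samples were grouped by their labels. Counts were scaled by TMM, filtered by edgeR's filterByExpr at a minimum count of 10, and tested by quasi-likelihood in a single model of 12 libraries in 4 groups without a block (edgeR 4.0.16, limma 3.58.1, R 4.3.3), two-sided, with BH adjustment over 15828 genes, of which those under 0.05 were called. Depth ran from 16469832 to 21096267 counts in C and I. A floor of 3 counts per library set lower bounds, and ratios from 1 to 9 counts in C carry exact 95% intervals for counting error. Python 3.11.15, pandas 2.3.3 and SciPy 1.17.1 made the tables. The scripts were tested on simulated counts. Alternatives were DESeq2 1.42.0, its size factors, library size alone, other filters, only the 6 libraries, the block, a threshold of 0.01 and leaving out each library.

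Same-numbered libraries deviated together: after group means were removed, C and I libraries of the same number correlated at 0.605, 0.768 and 0.828, and those of other numbers at −0.669 to −0.0265. The pairing comes from the labels' replicate numbers. Replicates of a group differed by more than counting noise (chi-square per gene 19.8 to 56.2).

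The comparison, the 51 gene lists and the genes named were chosen with earlier results of these data known. Named were the following of those called genes for which C and I did not overlap: the 10 with the highest log2 fold change, the 15 highest in no interferon list with at least 5 CPM in I, the 15 lowest, the lowered genes averaging at least 50 CPM, up to 10, the 5 strongest noncoding genes each way, and up to 4 genes a list, besides whole lists of signalling, class I, proteasome and adrenergic genes. Where a list had no call its 2 most abundant genes were taken. IRF1, ASS1 and MT2A, and others given only by counts or by their call with the block, were named after their values were seen. Some genes of these lists are not reported here.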

Additional observations from a re-analysis of the deposited data

Results flagged for a closer look

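The IFNγ response of 3 genes named above differed between cells with and without doxycycline in a model with a block for each replicate number within each doxycycline arm. The log2 response with doxycycline minus that without was −1.73 for RIGI (SE 0.24, edgeR adjusted p = 0.00727), −1.45 for IL18BP (SE 0.19, 0.00375) and −1.19 for FN1 (SE 0.13, 0.0009). RIGI had 3.43, 5.49 and 3.47 CPM in D and 28.4, 25.9 and 23.6 CPM in DI. IL18BP had 8.49, 9.83 and 8.57 CPM in D and 61.2, 39.02 and 58.6 CPM in DI. FN1 had 595, 1067 and 876 CPM in D and 1239.9, 2662 and 2177 CPM in DI. Against the C values given above, RIGI and IL18BP were wholly higher in D, and FN1 was higher in D at each replicate number. Part of each difference therefore lies in the level without IFNγ. DI lay wholly below I for IL18BP alone of the 3. SAMHD1 was the fourth gene called by this fit (−0.81, edgeR adjusted p = 0.00174). The model without that block called 0 genes.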

How the results depend on the processing

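With DESeq2 558 genes were called (61 lower, 16 of them by at least 2-fold), with the replicate block 953 (773 higher and 180 lower, 416 and 25 by at least 2-fold), and with the block on only the 6 libraries 2292 (1442 higher and 850 lower, 447 and 47 by at least 2-fold). An adjusted p under 0.01 left 10 lower genes, 5 by at least 2-fold, and the 6 libraries alone without a block left 5 lower by at least 2-fold. Leaving out 1 library gave 262 to 314 called genes, 250 to 299 higher, 12 to 16 lower, 218 to 258 higher by at least 2-fold and 6 to 10 lower by at least 2-fold, and a difference of 2.01 to 2.21 percentage points in the share of counts on interferon genes. In all 6 of these fits 239 of the 332 and 10 of the 18 genes stayed called. DI against D gave 442 genes by DESeq2 and 706 with the block, against 273. The interaction gave 2 genes by DESeq2 and 4 with a block within each doxycycline arm. The cause of these differences was not tested. Of the named called genes 13 lost their call with only the 6 libraries, 4 without the filter and 10 to 21 with 1 library left out, and 0 turned direction under any alternative run. Library size alone, DESeq2's size factors and other filters gave 336 to 353 called genes, and the block ended no call. Depth limits what can be said of genes at or under 3 counts a library, such as CXCL10.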
